A study of Mus musculus with 2 samples.

Results

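The cytosolic ribosomal protein genes, which encode the proteins of the ribosome, were followed through glomerular cells of 2 mice. Members were taken by symbol: every Rps or Rpl name with a number after it, together with Rpsa, Rplp0, Rplp1 and Rplp2, without the entries named -ps and without the Rps6k kinases. This gave 86 of the 31058 entries of the feature list. By name, 33 of them belong to the small subunit, 49 to the large subunit and 3 to the stalk of the large subunit. The symbol rule also took Rps19bp1, whose product binds Rps19 and is not itself part of the ribosome. Both mice were healthy C57Bl/6 animals of the genotype Pax2.rtTA;TetO.Cre;R26.Confetti, in which doxycycline lets cells with an active Pax2 promoter recombine a fluorescent reporter cassette. They received doxycycline when 19 days old and were killed at 30 days, so every cell compared here comes from an induced carrier of these transgenes. Each mouse gave 1 library of 10x 3' counts of unique molecular identifiers (UMIs, each standing for 1 captured transcript), from cells labelled as total cells of kidney glomeruli. The library titled female held Y-linked transcripts (13174 UMIs) and almost no Xist (0.682 CPM, UMIs scaled to a common total of all genes, against 1593 CPM in the other), so the libraries are called by their labels and no direction is drawn from sex.

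The ribosome is built from a small subunit, which reads the mRNA, and a large subunit, which joins the amino acids, and each mature particle holds its core proteins in fixed proportion to the others. In mammals the mRNAs of these proteins begin with a C followed by a run of pyrimidines, the 5' terminal oligopyrimidine (TOP) tract, through which mTOR signalling and the protein Larp1 control their translation. Podocytes, the post-mitotic cells that wrap the glomerular capillaries, make up most of the cells of such preparations. Parietal epithelial cells line Bowman's capsule, mesangial cells hold the capillary loops together, and endothelial, tubule and immune cells make up the rest.

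The tract can be read in the reference promoters of the genes that moved together. RefSeq start sites on GRCm38.p6, the assembly also called mm10, were at hand for 66 of the 86 members. A C followed by at least 4 pyrimidines (C or T) on the gene's strand stood exactly at an annotated start in 14 of these 66 members (21.2%), against 2.82% of 19341 other genes. Within 10 bases of a start, as annotated starts are often a few bases off, the shares were 60.6% and 35.1%. The ETS-type motif CCGGAAG, searched on both strands of the 300-base window, was in 39.4% of members and 12.04% of the others; read on the opposite strand its first letters also count as a tract. A match is a description of these letters only. The windows below are 50 bases, 30 before the annotated start and 20 from it, with the longest tract that begins within 10 bases of the start in capitals. The first 4 are the members with the most UMIs among those with a tract exactly at the start, with Rpl35a at chr16:33056452-33056501 (plus strand), Rps10 at chr17:27635225-27635274 (minus), Rplp2 at chr7:141447621-141447670 (plus) and Rpl15 at chr14:18270967-18271016 (minus).
Rpl35a: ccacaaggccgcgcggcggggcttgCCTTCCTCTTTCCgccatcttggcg
Rps10: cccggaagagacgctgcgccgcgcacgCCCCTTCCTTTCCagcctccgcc
Rplp2: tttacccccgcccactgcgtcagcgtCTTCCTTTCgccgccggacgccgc
Rpl15: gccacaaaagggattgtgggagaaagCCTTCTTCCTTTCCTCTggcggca

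The next 8 are the members with an entry whose place in the ribosomal protein pool differed between cell classes, as described further on. They lie at chrX:74270786-74270835 (Rpl10, plus), chr3:28805478-28805527 (Rpl22l1, plus), chr12:69184048-69184097 (Rpl36al, minus), chr17:46782637-46782686 (Rpl7l1, minus), chr5:115559437-115559486 (Rplp0, plus), chr15:80264287-80264336 (Rps19bp1, minus), chr9:66946056-66946105 (Rps27l, plus) and chr9:120127736-120127785 (Rpsa, plus). In Rpl22l1 a tract was found near the start. In Rps27l the capitals are the end of a longer pyrimidine run that begins just outside the 10 bases. A shorter tract of Rps27l, which begins just after the start, is in small letters. In the other 6 none begins within 10 bases of the start.
Rpl10: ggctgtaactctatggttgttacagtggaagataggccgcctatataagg
Rpl22l1: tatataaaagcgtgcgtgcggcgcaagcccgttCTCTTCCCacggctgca
Rpl36al: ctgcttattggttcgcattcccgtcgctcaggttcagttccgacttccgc
Rpl7l1: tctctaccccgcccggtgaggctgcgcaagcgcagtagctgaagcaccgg
Rplp0: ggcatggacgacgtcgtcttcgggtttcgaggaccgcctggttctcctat
Rps19bp1: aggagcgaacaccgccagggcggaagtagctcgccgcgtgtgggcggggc
Rps27l: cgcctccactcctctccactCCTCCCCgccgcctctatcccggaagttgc
Rpsa: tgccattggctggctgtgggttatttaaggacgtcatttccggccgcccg

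The libraries held 5233 and 4974 barcodes, in the order labelled female then labelled male that is kept throughout, with 67648465 and 57841860 UMIs, and 4909 and 4442 cells were kept at medians of 10672 and 9616 UMIs. They shared 10 barcodes. Cells were clustered with the ribosomal protein genes left out and named from marker genes. Podocyte-like cells numbered 3290 and 2947, mesangial-like cells 242 and 175, endothelial-like cells 196 and 172, tubule-like cells 70 and 111, parietal epithelial-like cells 73 and 49, and immune-like cells 22 and 58. Each class showed its own markers, but not always these alone. The 12 podocyte markers summed to 25730 and 27165 CPM in podocyte-like cells. The 12 parietal markers summed to 5335 and 5243 CPM in parietal epithelial-like cells, against at most 749.5 CPM elsewhere. Parietal epithelial-like cells also held the mesangial markers at 2513 and 3454 CPM summed. In immune-like cells the podocyte markers summed to 6948 and 1317 CPM, beside 6523 and 10682 CPM for the macrophage or monocyte markers. In the immune-like cells the macrophage genes C1qa, C1qb and C1qc were at 0, as was Ms4a1 of B cells. Clusters with all 12 podocyte markers stayed unnamed and outside the 6 classes where 1 of their 10 leading genes was a marker of another type, such as Hbb-bs. The leading genes of the named podocyte clusters held no podocyte marker either. With names from the markers alone, podocyte-like cells numbered 4239 and 3804.

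Ribosomal protein genes held 7.10% and 6.76% of the UMIs of all kept cells, and their share depended on the cell class. Immune-like cells had the highest share, with 17.5% of UMIs in the cells labelled female and 22.6% in those labelled male. Parietal epithelial-like cells followed with 11.3% and 10.6%, endothelial-like cells with 10.2% and 9.73%, and tubule-like cells with 8.96% and 7.14%. Podocyte-like cells stood at 6.71% and 6.34%, and mesangial-like cells at 6.22% and 5.76%. The order of the 6 classes was the same in both libraries.

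As means with the spread between the 2 mice, the shares were 20.1% ± 3.56 in immune-like, 10.9% ± 0.47 in parietal epithelial-like, 9.97% ± 0.33 in endothelial-like, 8.05% ± 1.29 in tubule-like, 6.52% ± 0.26 in podocyte-like and 5.99% ± 0.32 in mesangial-like cells (SD, n = 2). On the class sums, no neighbours in this order overlapped. The lower tubule value, 7.14%, was above the higher podocyte value of 6.71%. The lower podocyte value, 6.34%, was just above the higher mesangial value of 6.22%. Cells like the thick ascending limb, most of the tubule class, held 7.75% and 6.37%, the second below 6.71%. With cells of up to 10% mitochondrial UMIs only, the tubule-like cells held 6.98% and 6.73%. These were other cells, 13 and 27 of 1 cluster named as distal convoluted tubule, in which all 12 podocyte markers were also on. The parietal and endothelial values lay 10.6% against 10.2% apart at their nearest, and this order turned when the parietal cluster was taken whole with its Cst12-rich cells, which gave a parietal mean of 9.02%. Exact Clopper-Pearson intervals at 95% were narrow, such as 6.70% to 6.72% for the first podocyte value and 17.4% to 17.7% for the first immune value, and cover counting error only.

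Set against podocyte-like cells of the same library, the share was 1.68 and 1.67 times as high in parietal epithelial-like cells. Endothelial-like cells held 1.52 and 1.54 times the podocyte share. Mesangial-like cells held 0.93 and 0.91 times, tubule-like cells 1.34 and 1.13 times, and immune-like cells 2.61 and 3.56 times the podocyte share. All 12 podocyte markers were above 0 in every other class, at 765.2 to 6948 CPM summed, and the part of such mixed signal in the shares was not tested. Among parietal and endothelial cells the ratio to podocytes was nearly the same in both mice, and among immune and tubule cells it was not.

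Counted gene by gene, the parietal shift was broad. Of 83 members with enough counts to test, 79 were higher in parietal epithelial-like than in podocyte-like cells in both libraries, and 54 were at least 1.5-fold higher in both, against 15.8% of all 14054 genes (no test; CPM plus 10). In endothelial-like cells 76 members were higher in both libraries and 40 at least 1.5-fold higher, against 14.3% of all genes. In immune-like cells these counts were 80 and 77, against 12.5%, and in tubule-like cells 68 and 5, against 14%. In mesangial-like cells 53 members were lower than in podocyte-like cells in both libraries, 22 were higher, and 3 were at least 1.5-fold lower in both, against 8.2% of all genes.

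**Figure D1:**
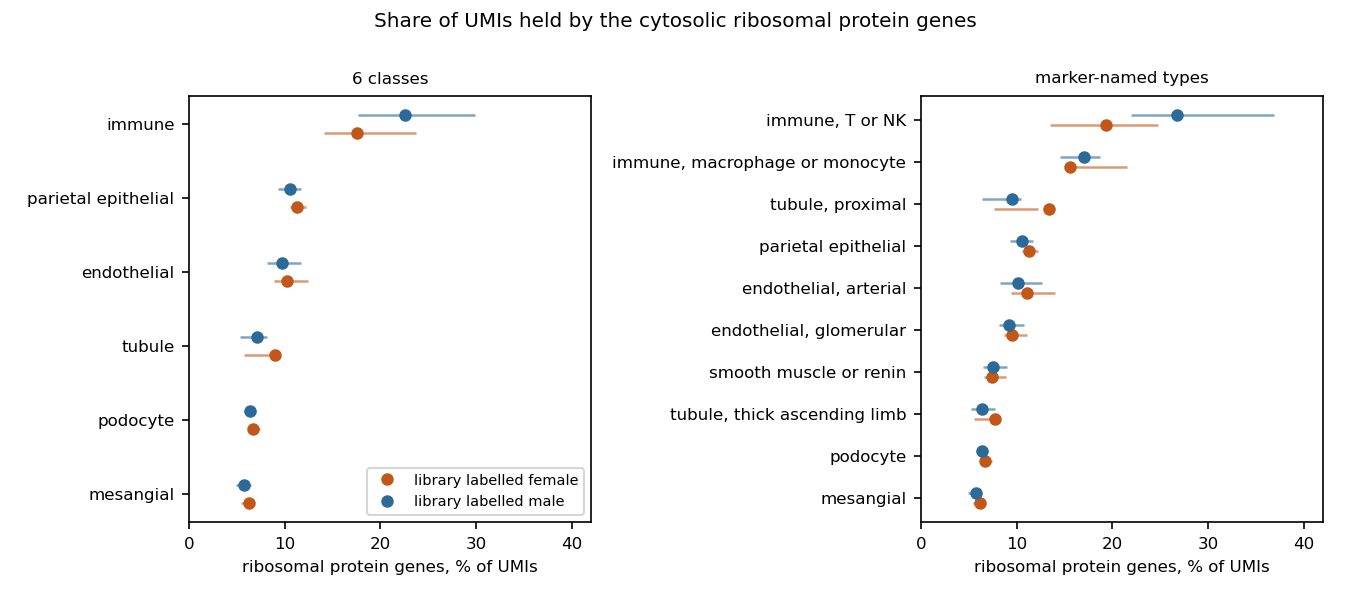
Ribosomal protein genes as a percent of UMIs (x axis) in the 6 classes (left) and in the marker-named types (right); points are the summed cells of each library and lines the middle 50% of cells. Immune-like cells sit at 17.5% and 22.6%, parietal epithelial-like cells at 11.3% and 10.6%, and podocyte-like cells at 6.71% and 6.34%.

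Within the classes the types differed. T or NK-like cells held 19.3% and 26.7% (9 and 32 cells) and macrophage or monocyte-like cells 15.6% and 17.0% (13 and 26 cells); per cell, the macrophage medians were 18.5% and 17.7%, in the opposite order. Arterial endothelial-like cells held 11.1% and 10.1%, above the 9.54% and 9.24% of glomerular endothelial-like cells in each library. Their podocyte markers also stood higher, at 7294 and 7532 CPM against 1711 and 1492 CPM, and the part of this in the difference was not tested.

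Proximal tubule-like cells held 13.4% and 9.54% (10 and 22 cells), with medians per cell of 9.41% and 7.75%, and cells like the thick ascending limb held 7.75% and 6.37% (60 and 89 cells). Tubule-like cells stood apart in mitochondrial content, with 13.4% and 13.7% of UMIs from mitochondrial genes, against 3.56% to 5.75% in the other classes. Over the UMIs of the remaining genes their ribosomal protein share was 10.3% and 8.28%. Smooth muscle or renin-like cells, which are in none of the 6 classes, held 7.42% and 7.50%.

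The podocyte-like cells formed 6 clusters, whose shares ran from 6.46% to 6.98% and from 6.11% to 6.42%. In 6 of 6 clusters the library labelled female was higher. Across podocyte-like cells the share had a Spearman correlation of -0.24 and -0.18 with the UMIs of the cell and of 0.05 and 0.00 with its mitochondrial percent (3290 and 2947 cells; the points share a library, and the share has the UMIs as its denominator). Median podocyte cells carried 743 and 650 ribosomal protein UMIs, against 1741 and 1692.5 in immune-like and 1556 and 1568 in parietal epithelial-like cells. The immune-like cells reached this with 8816 and 7843.5 UMIs per cell, fewer than the 10855 and 9982 of podocyte-like cells.

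Each gene was then tested in each class against the mean of the other 5 with edgeR's quasi-likelihood test on 12 sums of counts, with the mouse as a block, and called at a Benjamini-Hochberg adjusted p under 0.05 and at least 1.5-fold. With the mouse as a block, the average difference between the 2 mice is taken out. These p-values measure the spread that remains between the sums, pooled over the classes, and rest on 2 animals only. In immune-like cells 80 of 83 members were called higher, against 14.6% of all genes tested, with a median log2 fold of 1.39 (all genes: -0.29). The 3 not called were Rpl7l1, Rps27l and Rps19bp1, with log2 folds of -0.29, -0.11 and -0.02. The highest was Rpsa, the small-subunit protein also known as a laminin receptor, with 4505 and 4641 CPM in immune-like cells against 932 and 800 CPM in podocyte-like cells (log2 fold 2.21 ± 0.10 SE, adjusted p = 1.7e-11, edgeR). Rplp0, which anchors the stalk, came next with 3317 and 3792 CPM against 630.4 and 565.3 CPM in podocyte-like cells (log2 fold 2.07 ± 0.11, adjusted p = 1.2e-10, edgeR). For both genes the lower immune value was above the higher value of every other class.

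In mesangial-like cells 75 of 83 members were called lower, against 9.38% of all genes, and none higher, with a median log2 fold of -0.88 (all genes: 0.05). The mean they are set against contains the immune-like cells. Against podocyte-like cells alone, the median log2 ratio of the members was -0.11 and -0.10 (CPM plus 10, no test). In the fit, Rps20, a small-subunit protein, had a log2 fold of -1.22 and Rplp0 one of -1.14. In podocyte-like cells 38 members were called lower, against 15.5% of all genes, and 1 higher, against 19%, with a median of -0.55 (all genes: 0.10). The lowest was Rplp0 (log2 fold -1.09) and the member called higher was Rps19bp1 (0.74). With DESeq2 size factors 64 members were called lower in podocyte-like cells, and without the filter on low counts 16.

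In endothelial-like cells 1 member was called lower, Rpl36al (log2 fold -0.61, against 7.83% of all genes), and in tubule-like cells 1 was called higher, Rps27l (0.73, against 20.8%). In parietal epithelial-like cells edgeR called 0 members, against 25.1% of all genes in either direction, while 9 of 83 had an unadjusted p under 0.05 and DESeq2 called 2 higher. The mean of the other 5 classes contains the immune-like cells, so a class with a share above that of podocytes can lie near that mean. With cells of up to 10% mitochondrial UMIs only, 48 members were called lower in tubule-like cells and 0 in endothelial-like cells. The share of all genes called in that run is not given here. Its 13 and 27 tubule-like cells were 1 cluster named as distal convoluted tubule, in which all 12 podocyte markers were also on. No cluster was named as proximal tubule or thick ascending limb there.

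**Figure D2:**
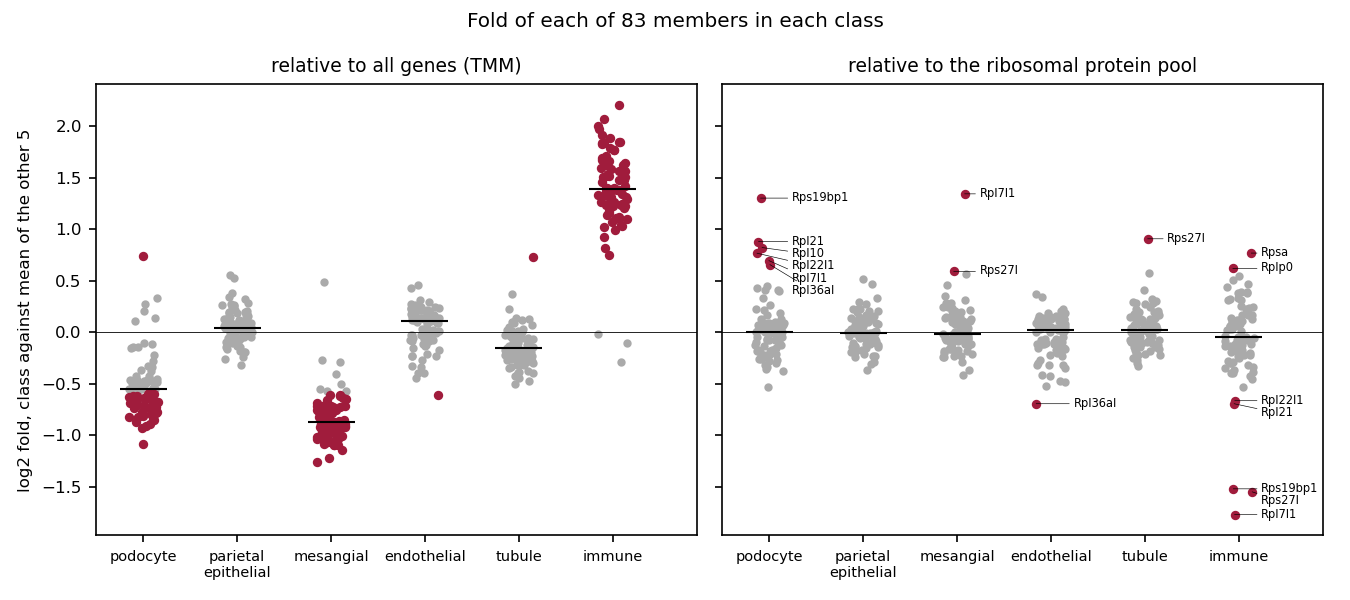
Log2 fold (y axis) of each of the 83 members tested in each class against the mean of the other 5, relative to all genes (left) and relative to the ribosomal protein pool (right); points called are red, other points grey, and black lines are medians. The immune-like median stands at 1.39 on the left and at -0.05 on the right, where 17 points are called.

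To separate members that differ from the rest of the pool from members that move with it, the fit was repeated with the summed ribosomal protein UMIs as the size of each sum. On this scale a fold says whether a gene held a larger or smaller part of the ribosomal protein transcripts of a class. On this scale 17 calls were made, in 9 of 83 members, and 74 members were called in no class, with log2 folds of at most 0.54 in either direction. All genes are shifted on this scale, with 47% called higher in podocyte-like and 60.9% called lower in immune-like cells, so the members can be read against each other but not against these shares. Across the 83 members, the log2 part of the pool in the other classes had a Pearson correlation of 0.91 to 0.98 with that in podocyte-like cells of the same library, and of 0.983 to 0.996 between the libraries within a class (genes are not independent replicates). Small-subunit members held 43.1% to 45.0% of the pool in the classes other than immune-like, and 46.1% and 46.5% there. Stalk members held between 4.11% and 5.51%.

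In podocyte-like cells 6 members were called higher within the pool, against 47% of all genes: Rps19bp1, Rpl21, Rpl10, Rpl22l1, Rpl7l1 and Rpl36al. At clustering resolution 0.5 the calls of Rpl36al and Rpl7l1 were lost, and in cells of 5000 to 20000 UMIs that of Rpl36al. Rpl21, a large-subunit protein and the member with the most UMIs in these libraries (195182), held 2.83% and 2.78% of the pool in podocyte-like cells. It held 2.38% and 2.30% in mesangial-like cells and between 1.08% and 1.63% in the other 4 classes. The podocyte values lay above those of every other class, and the mesangial values above the rest (log2 fold in podocyte-like cells 0.88 ± 0.15 SE, adjusted p = 7.6e-05, edgeR). In immune-like cells Rpl21 was called lower within the pool (1.18% and 1.08%; log2 fold -0.70 ± 0.17, adjusted p = 0.0018, edgeR), although its CPM there was higher, 2062 and 2448 against 1896 and 1763 in podocyte-like cells.

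Rpl10, an X-linked large-subunit protein that sits near the catalytic centre and is added late in assembly, held 2.08% and 2.09% of the pool in podocyte-like cells. In the other 5 classes it ran from 0.99% to 1.35%, so no value reached the podocyte level (log2 fold 0.82 ± 0.15, adjusted p = 1.9e-04, edgeR). In CPM, Rpl10 stood at 1397 and 1325 in podocyte-like cells, near the 1478 and 1426 of parietal epithelial-like cells, which have the larger pool. Rps19bp1 held 0.08% and 0.09% of the counts summed over the members in podocyte-like cells and 0.01% to 0.06% elsewhere (log2 fold 1.30 ± 0.13, adjusted p = 3.4e-07, edgeR). Its CPM was 52.4 and 55.5 in podocyte-like cells and 28.3 and 29.7 in endothelial-like cells. This gene is no part of the ribosome. In immune-like cells it stood at 43.3 and 28.1 CPM, from 11 and 14 UMIs, with a log2 fold of -0.02 relative to all genes.

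The remaining podocyte calls were paralogs. Rpl22l1, a close copy of the RNA-binding large-subunit protein Rpl22, stood at 488.2 and 488.7 CPM in podocyte-like cells and at 364.1 and 364.1 CPM in endothelial-like cells. Podocyte-like cells did not have its highest CPM. Parietal epithelial-like and immune-like cells were above them in both libraries, the immune-like cells on 127 and 415 UMIs. For each 100 UMIs of Rpl22 there were 103 and 104 of Rpl22l1 in podocyte-like cells and 87.6 and 87.8 in parietal epithelial-like cells. The ratio was 70.2 and 65.9 in tubule-like, 64.5 and 62.7 in mesangial-like, 57.5 and 58.3 in endothelial-like and 41.5 and 56.6 in immune-like cells. Podocyte and parietal values did not overlap those of any other class, while tubule, mesangial and endothelial intervals overlapped in part. UMIs of different genes are compared here as captured 3' ends, which do not scale with transcript length.

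Rpl7l1, a relative of Rpl7 found with pre-ribosomes, had its highest part of the pool in mesangial-like cells, 0.14% and 0.15%, against 0.09% and 0.11% in podocyte-like cells (mesangial log2 fold 1.34 ± 0.17, adjusted p = 3.7e-06, edgeR; 2 members were called higher there, against 54.7% of all genes). It was the member with the lowest part in immune-like cells relative to the other classes (log2 fold -1.77 ± 0.28, adjusted p = 3.3e-05, edgeR), on 18 and 19 UMIs there. Per 100 UMIs of Rpl7 it stood at 11.3 and 13.1 in mesangial-like, 8.12 and 9.69 in podocyte-like and 4.28 and 1.81 in immune-like cells. Parietal epithelial-like cells stood at 4.06 and 3.65, endothelial-like cells at 5.75 and 4.94, and tubule-like cells at 4.98 and 6.08. In the library labelled female the immune interval, 2.51 to 6.84, overlapped those of the parietal, endothelial and tubule classes. In CPM, Rpl7l1 was at 87.6 and 89.2 in mesangial-like and at 70.8 and 38.2 in immune-like cells.

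Rps27l, a copy of the small-subunit protein Rps27 that p53 is known to induce, was called higher within the pool in tubule-like cells (0.45% and 0.48%; log2 fold 0.91 ± 0.17, adjusted p = 3.0e-04, edgeR), where no other member was, against 25.2% of all genes. It was also called higher in mesangial-like cells (0.36% and 0.41%; 0.59 ± 0.17, adjusted p = 0.0067, edgeR). It was called lower in immune-like cells, with 0.13% and 0.10% (log2 fold -1.55 ± 0.21, adjusted p = 8.9e-06, edgeR). The mesangial fold lies just past the 1.5-fold limit, which is 0.58 on the log2 scale, and with other cluster names it was 0.58 and not called. Its CPM in tubule-like cells was 402.0 and 344.1, against 217.5 and 242.7 in podocyte-like and 236.1 and 214.9 in immune-like cells. For each 100 UMIs of Rps27, Rps27l stood at 54.8 and 50.03 in tubule-like cells, 40.0 and 35.2 in mesangial-like, 30.1 and 29.7 in podocyte-like, 21.4 and 15.8 in endothelial-like and 15.7 and 8.27 in immune-like cells. The tubule class values were above those of the other classes, and the immune and endothelial values below the rest. Within the tubule class the ratio was 96.4 and 67.9 in cells like the proximal tubule (10 and 22 cells), while the cells like the thick ascending limb stood at 40.4 and 43.2, with intervals that overlap the mesangial ones.

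**Figure D3:**
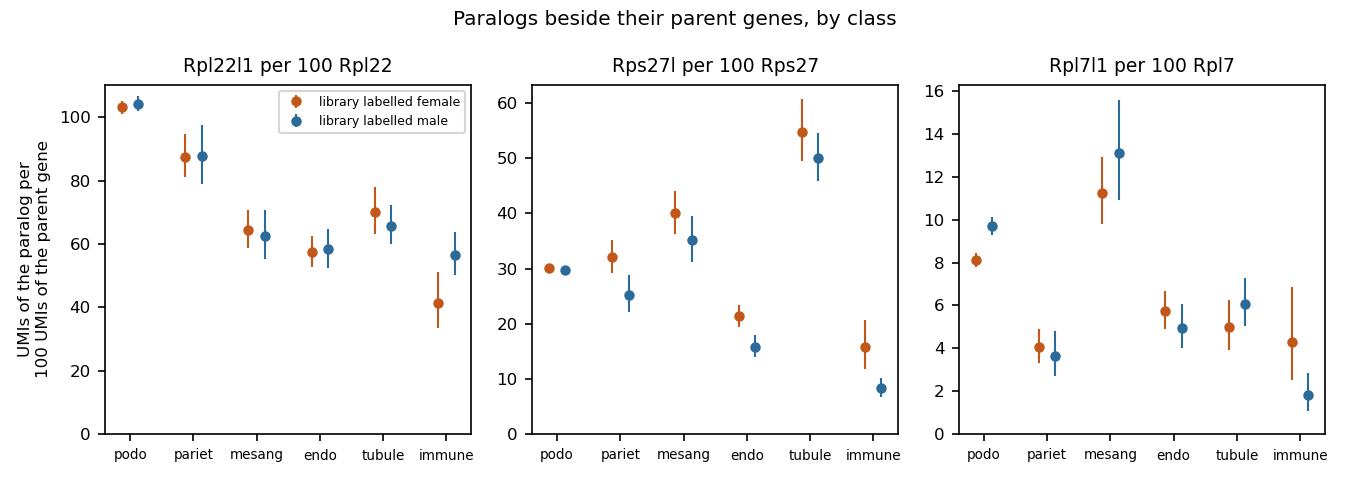
UMIs of 3 paralogs per 100 UMIs of their parent gene (y axis) in the 6 classes (x axis), with 95% counting intervals. Rpl22l1 stands at 103 and 104 in podocyte-like cells, Rps27l at 54.8 and 50.03 in tubule-like cells, and Rpl7l1 at 11.3 and 13.1 in mesangial-like cells, each the highest of its panel.

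Rpl36al, an autosomal copy of the X-linked Rpl36a, held 0.21% and 0.19% of the pool in podocyte-like cells and 0.10% and 0.08% in endothelial-like cells, where it was the 1 member called lower, against 8.83% of all genes (log2 fold -0.70 ± 0.16, adjusted p = 0.0038, edgeR). Per 100 UMIs of Rpl36a it stood at 53.4 and 43.1 in podocyte-like cells, and was lowest at 15.4 in endothelial-like cells (labelled male). Immune-like cells stood at 43.75 and 20.7, so their values overlapped the podocyte ones. The CPM of Rpl36al was higher in immune-like than in podocyte-like cells in both libraries, on 70 and 108 immune UMIs. Within the immune-like pool 2 members were called higher, against 5.84% of all genes, and 5 lower, against 60.9%. Rpsa held 2.57% and 2.06%, against at most 1.54% in any other class (log2 fold 0.77 ± 0.15, adjusted p = 3.3e-04, edgeR). Rplp0 held 1.89% and 1.68% of the immune-like pool (log2 fold 0.62 ± 0.16, adjusted p = 0.0021, edgeR). Parietal epithelial-like cells came next for Rplp0, with 1.60% and 1.43%, and podocyte-like cells were lowest with 0.94% and 0.89%.

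**Figure D4:**
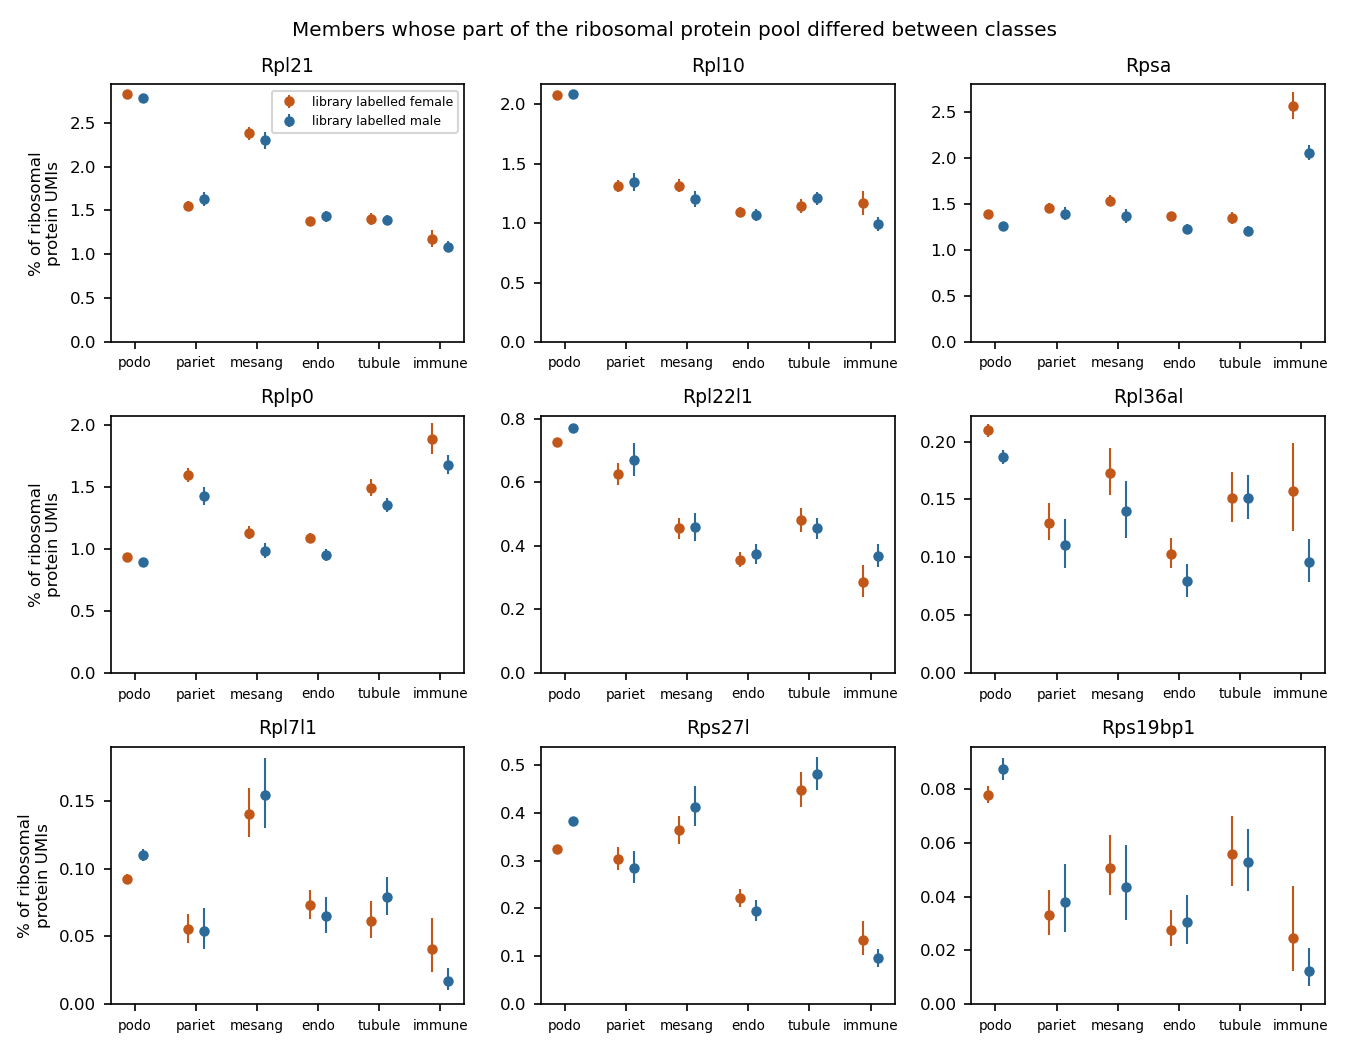
Percent of all ribosomal protein UMIs (y axis) held by each of the 9 members called on the pool scale, by class (x axis) and library, with 95% counting intervals. Rpl21 and Rpl10 are highest in podocyte-like cells in both libraries (2.83% and 2.78%; 2.08% and 2.09%), and Rpsa in immune-like cells (2.57% and 2.06%).

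Several paralogs were nearly silent. Rpl10l had 0 UMIs in all cells, Rpl39l 6 and Rpl3l 8, and these 3 members were not tested; 6 of the UMIs of Rpl3l, the copy of Rpl3 known from muscle, were in tubule-like cells (4 and 2). Rps27rt, a near-identical copy of Rps27, had 2534 UMIs, and reads of the 2 genes may have been split by the counting, so both values are uncertain, as are those of other members with processed pseudogenes. The 9 entries named -ps that the rule leaves out held 2369 and 1914 UMIs. Rps16, with 182509 UMIs, was called in no class on the pool scale. It ran from 1.61% of the pool in tubule-like cells to 2.54% in podocyte-like cells.

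Between the libraries there was 1 mouse on each side, so no test was made. Summed over members, the CPM of the library labelled female over that of the library labelled male was 1.06 in podocyte-like cells, 1.06 in parietal epithelial-like, 1.08 in mesangial-like, 1.05 in endothelial-like and 1.25 in tubule-like cells, and 0.777 in immune-like cells. The tubule value, 0.327 on the log2 scale, turned to -0.053 in cells of 5000 to 20000 UMIs. Under the 10% mitochondrial limit, where the class was 1 cluster named as distal convoluted tubule, it was 0.052. In podocyte-like cells 62 of 83 members were higher and 21 lower in the library labelled female, and 0 reached 1.5-fold, against 0.713% of all genes. Ratios there ran from 0.791 for Rpl29 (30.1 and 38.1 CPM) and 0.800 for Rpl35 (227.3 and 284.1 CPM) to 1.26 for Rps2 (761.5 and 604.4 CPM) and 1.29 for Rpl41 (1444 and 1119 CPM), the smallest protein of the set. Rps28 stood at 1.19 and Rps27 at 0.886; members were ranked on the log2 ratio of CPM plus 10. Rps2 and Rpl41 were higher in the library labelled female in 6 of 6 classes, with ratios of 1.13 to 1.44 and 1.08 to 1.38, and Rpl35 was lower in 6 of 6, with ratios of 0.629 to 0.876.

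The X-linked members were near balance between the library with Xist and the library without it. In podocyte-like cells the ratio was 1.05 for Rpl10 (1397 and 1325 CPM), 1.07 for Rps4x (793.3 and 741.5 CPM), 0.961 for Rpl36a (263.4 and 274.0 CPM) and 0.940 for Rpl39 (706.5 and 752.0 CPM). These lie inside the range of the autosomal members.

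In immune-like cells 77 of 81 members with at least 30 UMIs were lower in the library labelled female, and 11 at least 1.5-fold lower, against 26.7% of all genes past that fold in either direction. Rpl36al, Rps2, Rps27l and Rpl41 were the 4 that were higher. The immune-like cells of the libraries differed in makeup, with 9 and 32 T or NK-like cells of 22 and 58. All 12 podocyte markers were above 0 in both immune sums, at 6948 and 1317 CPM summed, against 25730 and 27165 CPM in podocyte-like cells. The part of these differences in the ratio was not tested.

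**Figure D5:**
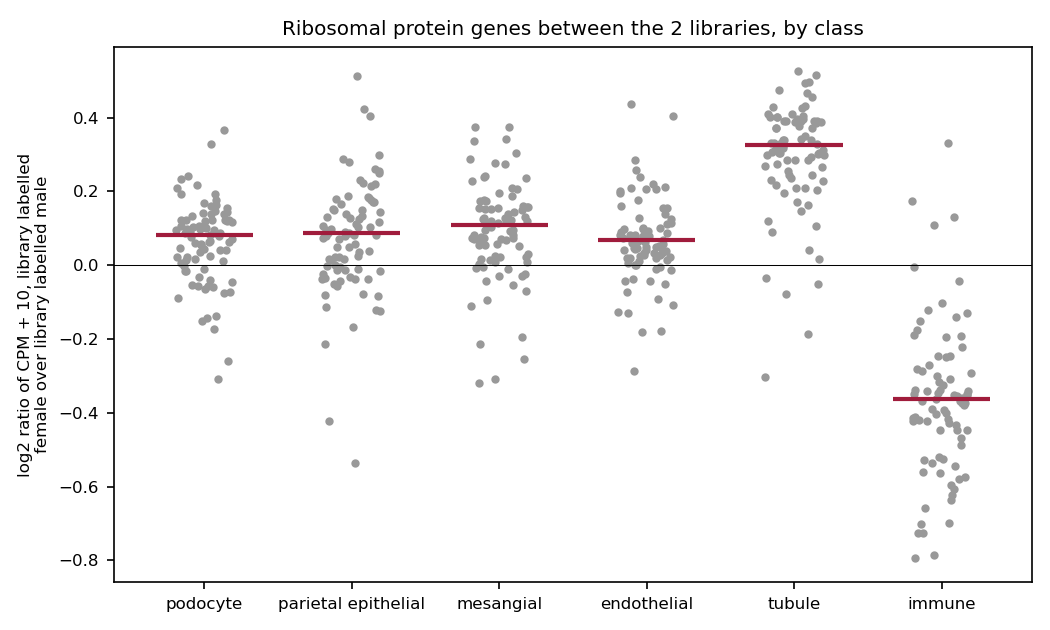
Log2 ratio of CPM plus 10 (y axis), library labelled female over library labelled male, for each member with at least 30 UMIs in each class (x axis); red lines are the summed members. The sums lie above 0 in 5 classes, at 0.33 in tubule-like cells, and at -0.36 in immune-like cells.

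Other genes of the translation machinery were counted on the all-gene scale. Fau and Rack1, which encode proteins of the small subunit under other names, were called higher in immune-like cells (log2 folds 1.96 and 1.63) and lower in mesangial-like cells (-0.95 and -1.17). Of 15 translation factors and other genes with known TOP mRNAs, 12 were called higher in immune-like cells, against 14.6% of all genes, and 11 lower in mesangial-like cells, against 9.38%. Their median log2 folds were 0.998 and -0.78 (all genes: -0.29 and 0.05). Tpt1, the translationally controlled tumour protein, stood at 5775 and 7458 CPM in immune-like and 1754 and 1813 CPM in mesangial-like cells. Eif4b, a helicase cofactor, was not called in immune-like cells (log2 fold 0.00) and was called lower in mesangial-like cells (-0.92).

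Of 20 ribosome biogenesis genes, 3 were called higher in immune-like cells, a share near the 14.6% of all genes. In mesangial-like cells 3 of them were called lower and 1 higher, against 9.38% and 16.9% of all genes, and in tubule-like cells 4 were called lower and 1 higher, against 11.3% and 20.8%. Of 14 mTOR and Myc regulators 4 were called higher in immune-like cells, against 14.6%, and 0 in either direction in mesangial-like cells. Of 77 mitochondrial ribosome genes tested, 35 were called higher in tubule-like cells, against 20.8% of all genes, where 1 cytosolic member was. In immune-like cells 3 of the 77 were called higher and 5 lower, against 14.6% and 12.5% of all genes.

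By the likeness rule, genes outside the set were ranked by Pearson correlation of log2 CPM with the log2 share of the members over the 12 sums of 6 classes and 2 libraries, among 1550 genes at 50 CPM or more in every sum. Rack1, a scaffold on the small subunit, had the highest value, 0.99, followed by Nsa2, which is needed for large-subunit assembly, at 0.99. Eef1b2, Fau, Eif3f and Eif3e came next, at 0.98, 0.98, 0.97 and 0.97. Rack1 ran from 498.7 and 418.3 CPM in mesangial-like cells to 1794 and 2263 CPM in immune-like cells. The 12 points share libraries, and the immune-like sums lie far from the others.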

How the data were processed

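Single-cell counts of 2 libraries were analysed. Cell Ranger 6.1.2, STAR 2.7.5a and the build mm10 are named in the submitters' processing notes, with no role; the annotation and the cell-calling filter were not given in the sources used here. Raw UMI counts per gene and barcode were deposited by the authors unnormalized, per the file headers. Barcodes over 20% mitochondrial UMIs or under 500 genes were left out. Members, mitochondrial, reporter, Xist, Tsix and Y-linked genes were left out of the clustering (10000 scaling, 2000 variable genes, 30 components, 20 neighbours, Leiden resolution 1.0; scanpy 1.11.5, leidenalg 0.10.2). Scrublet called 2 and 1 cells, so it has not worked, and mixed cells remain.

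A cluster was named by the list with the highest summed relative marker level, needing 3 markers in over 20% of cells at 50 CPM and 2-fold, and stayed unnamed where its 10 leading genes held more markers of another type. This rule, and the split of the cluster with the highest parietal markers at resolution 0.5, were set after the clusters were seen. Members and gene lists were chosen with earlier results of these data known.

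Counts were summed per library and class. edgeR 4.0.16 (quasi-likelihood, TMM or the pool of members as library size, genes with 10 counts in 2 sums, mouse as block) tested each class. The class sums of a library come from the same mouse, which is the pairing, and the 2 libraries are different mice. DESeq2 1.42.0 was an alternative. The fit was tested on simulated data. Intervals are exact, at 95%, and cover counting error only. Named members were the 3 highest and 3 lowest calls per class on the pool scale with 30 UMIs and the same direction in both libraries, paralogs with their parents, X-linked members, the 3 with the most UMIs, the 3 highest and 3 lowest podocyte ratios between libraries, and the 6 genes most like the share. Members at the ends of the all-gene scale, and Rpl36al and Rpl22l1 in podocyte-like cells, were named after their values were seen. Some items that these rules take are not reported here.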

Additional observations from a re-analysis of the deposited data

Results flagged for a closer look

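The log2 ratio of the summed ribosomal protein genes between the library labelled female and the library labelled male was -0.364 in immune-like cells (95% counting interval -0.380 to -0.348), and above 0 in the other 5 classes. In cells of 5000 to 20000 UMIs the tubule-like ratio was also below 0, at -0.053, beside -0.263 in immune-like cells, so the immune-like cells were then not alone in their sign. The difference between the classes was not tested, as each side is 1 mouse. The immune-like value rests on 22 and 58 cells, of which 9 and 32 were T or NK-like.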

How the results depend on the processing

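The fits without a replicate block (the mouse) gave the same number of member calls in each class as with it: 39, 0, 75, 1, 1 and 80 on the all-gene scale and 6, 0, 2, 1, 1 and 7 on the pool scale for podocyte-, parietal epithelial-, mesangial-, endothelial-, tubule- and immune-like cells. Immune-like cells had 80 members called higher under every alternative run. On the pool scale 15 to 17 of the 17 calls were kept under each alternative.

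On the all-gene scale podocyte-like calls were 65 with DESeq2 size factors and 65 with DESeq2's Wald test, under which the median of all genes shifted by -0.19, and 17 without the low-count filter. Parietal calls were 1 under the 10% mitochondrial limit and without the highest doublet scores, and 2 with DESeq2 size factors and with its test. Endothelial calls were 0 under that limit and 2 in cells of 5000 to 20000 UMIs. Tubule calls were 48 under that limit, where the class was 1 cluster named as distal convoluted tubule, 13 in those cells and 2 without the filter. On the pool scale, podocyte calls were 4 at resolution 0.5 and 5 at 5000 to 20000 UMIs, parietal calls were 1 with the parietal cluster taken whole and mesangial calls 1 with it and with clusters named by markers alone (both alternatives were chosen after seeing the data). Endothelial calls were 2 at resolution 0.5, without the highest doublet scores, at 5000 to 20000 UMIs and with the whole cluster; tubule calls were 2 at 5000 to 20000 UMIs and without the filter.

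The parietal share was 9.10% at resolution 0.5, 9.02% with the whole cluster and 11.6% over UMIs without mitochondrial genes, which also gave 6.81% in podocyte-like and 10.3% in endothelial-like cells; without the highest doublet scores the endothelial share was 10.4%. The log2 ratio of the summed members between libraries was 0.079 (resolution 0.5) and 0.086 (members kept in the clustering) in podocyte-like cells, 0.106 (10% limit) and 0.123 (whole cluster) in parietal, 0.122 (doublet scores) and 0.123 (markers alone) in mesangial and 0.122 (5000 to 20000 UMIs) in endothelial-like cells. In tubule-like cells it was 0.052 under the 10% limit, 0.253 with members in the clustering, 0.372 without the highest doublet scores, and turned to -0.053 at 5000 to 20000 UMIs. In immune-like cells it was -0.215 under the 10% limit and at resolution 0.5, -0.335 without the highest doublet scores and -0.263 at 5000 to 20000 UMIs. Of the named folds, Rpl7l1 in immune-like cells, not called on the all-gene scale, turned to 0.11 without the library labelled male (-0.76 without the other), and Rps27l there turned to 0.14 under the 10% limit. The causes were not tested. The small immune, parietal and tubule classes limit the depth.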

Other observations

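Fau, which encodes a ubiquitin-like protein fused to a small-subunit protein and lies outside the symbol rule, had ratios between the library labelled female and the library labelled male of 1.08 to 1.17 in 5 classes and 0.828 in immune-like cells. No test was possible with 1 mouse on each side.

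Barcodes left out by the filters numbered 324 and 532 and had 50.4% and 49.5% mitochondrial UMIs. Ribosomal protein genes held 4.10% and 4.02% of all UMIs of these barcodes, less than in any kept class. This total includes the mitochondrial UMIs, which were a far larger part of it than in the kept classes. The share over the UMIs of the remaining genes is not given for these barcodes. The order is therefore not read as a lower ribosomal protein level among the remaining genes. A cluster of cells with cell cycle genes in the lead (24 and 11 cells), which stayed unnamed, held 7.75% and 6.75%. The unnamed cells with all 12 podocyte markers whose leading genes include Cst12 and Igfbp6 held 8.09% and 8.15% in the part led by Col6a1 (90 and 59 cells) and 7.82% and 6.62% in the other (62 and 61 cells).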
